A study of Macaca fascicularis with 2 samples.

Results

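The genes described are 8 members of the BCL2 family, *BCL2*, *BCL2L1*, *MCL1*, *BCL2L11*, *BMF*, *BID*, *BAX* and *BAK1*, which were chosen by symbol and each matched 1 of the 29324 genes listed for this series. They were followed in single circulating CD4+CD8+ double-positive T cells from the blood of 1 untreated cynomolgus monkey, aged 10 years. Magnetic beads against CD4, followed by beads against CD8, drew these cells from freshly isolated blood mononuclear cells, antibody tags for CD4 and CD8α were bound to them, and the same cells gave 1 gene library and 1 tag library. With 1 animal and 1 preparation there is no replicate, so no difference could be tested across animals, and the intervals cover counting error alone. The question asked of these genes was how their levels differ between naive-like, *FOXP3*-positive, helper-like and cytotoxic-like cells, and between cells gated on the CD4 and CD8 tags.

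The BCL2 family sets the threshold for death through the mitochondria. *BCL2*, *BCL2L1* (which encodes BCL-XL) and *MCL1* encode the survival proteins, which hold the others in check. *BAX* and *BAK1* encode the effectors that open the outer mitochondrial membrane. *BCL2L11* (BIM), *BMF* and *BID* encode BH3-only proteins, the messengers of stress that bind the survival proteins or set off the effectors. In T cells, BCL2 is known for the survival of resting cells under interleukin 7, and BIM for the death of cells that lose cytokine support or react to self. The family is also controlled after transcription, so RNA levels do not give protein levels.

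Values are counts of unique molecular identifiers (UMIs, 1 for each captured RNA molecule), added up within each group of cells and scaled to 1000000 gene UMIs (CPM), with an exact Poisson 95% interval. The 8830 cells kept held 31677119 gene UMIs, a median of 3145 per cell from 1127 genes. All 8 members were detected, *MCL1* with 4905 UMIs in 3361 cells, *BAX* with 3003, *BID* with 1230, *BCL2L1* with 893, *BAK1* with 770, *BCL2* with 767, *BCL2L11* with 502 and *BMF* with 364 UMIs in 341 cells. Cells were clustered without the 8 members and without the other listed BCL2 family genes found by symbol, so that the members had no part in defining the groups. The classes were 5237 naive-like cells, 573 Treg-like (regulatory) cells, 789 helper-like cells (221 Th2-like, 325 Th17-like and 243 Tfh-like, the follicular helper type), 1334 cytotoxic-like cells (852 CD4 CTL-like, 429 CD8 CTL-like and 53 innate-like) and 265 Eomes+ Tr1-like cells. *FOXP3*, the defining gene of regulatory T cells, stood at 292 CPM in Treg-like cells and at 1.81 in naive-like cells, and *GZMB*, the gene of the killing enzyme granzyme B, at 4493 in cytotoxic-like against 3.25 in naive-like cells. The preparation also held 162 B-like, 46 cycling and 19 monocyte-like cells, 260 cells of an unnamed cluster, and 145 cells of another unnamed cluster with a median of 939 UMIs. Naive-like cells were shallower, with a median of 2859 UMIs, than Treg-like (3375), cytotoxic-like (3623) and helper-like cells (4661).

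The classes differed in which family genes they carried. Treg-like cells had the highest *BCL2L11* and *BCL2*, and naive-like cells were the class with clear *BMF*. Cytotoxic-like and Eomes+ Tr1-like cells had high *BCL2L1* with low *BCL2*. Their *BAK1* was high too, except in the CD8 CTL-like class, which at 25.4 CPM lay near Treg-like cells at 26.1. That class mixes tag gates of unlike depth, and its *BAK1* by gate is given below. Helper-like cells differed from naive-like cells mainly by low *BMF*. *BAX*, *BID* and *MCL1* spanned the narrowest ranges over the 9 classes.

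**Figure D1:**
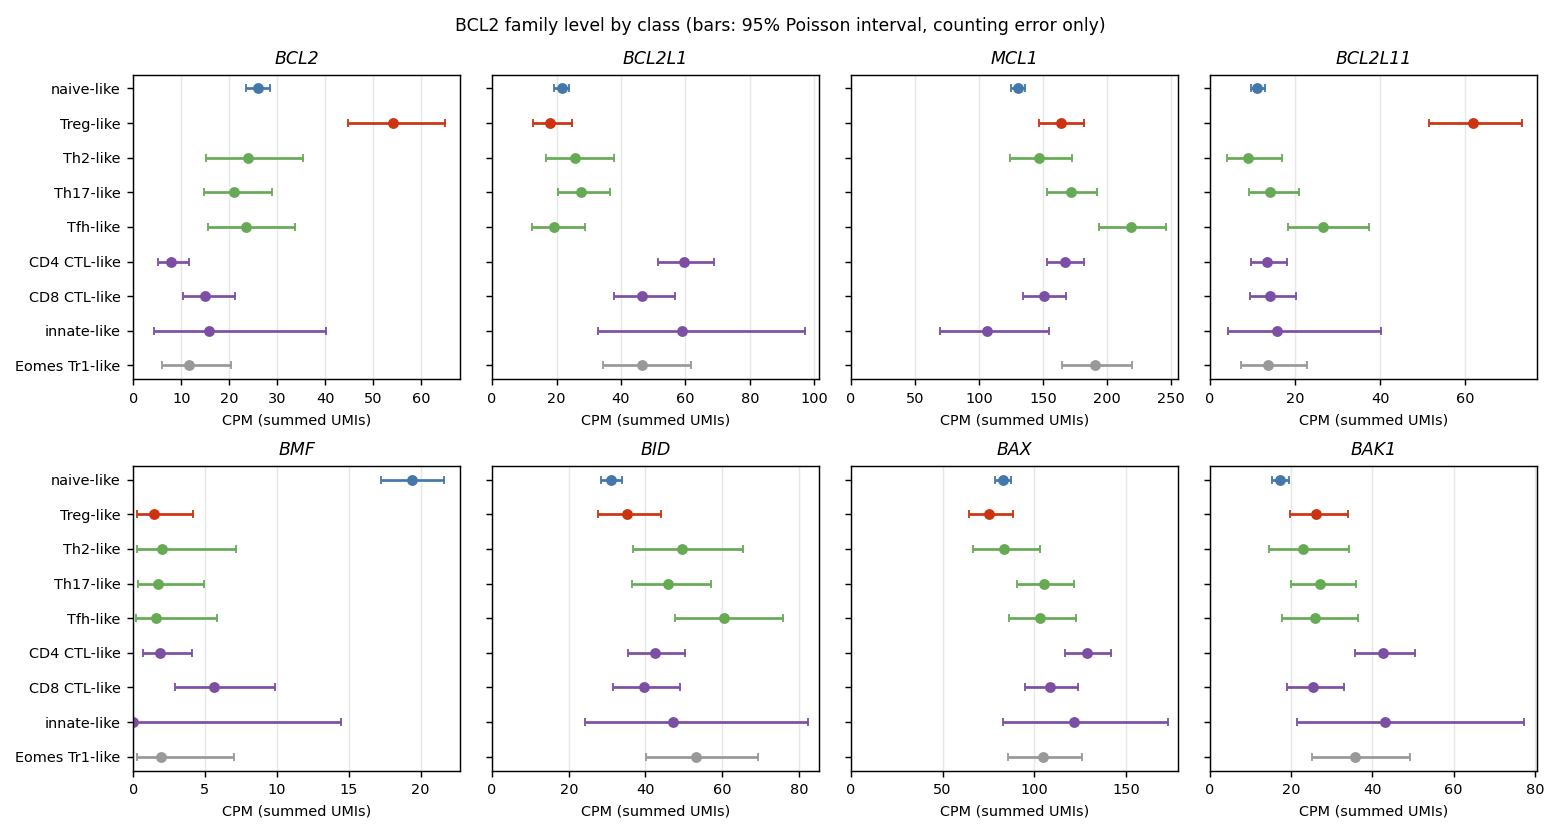
Level of each member in CPM (horizontal axes, each starting at 0) in the 9 T cell classes, 1 panel per gene. Points are sums over all cells of a class and bars are exact Poisson 95% intervals, which cover counting error only; *BCL2* and *BCL2L11* stand apart in Treg-like cells (red), *BMF* in naive-like cells (blue), and *BCL2L1* is higher in the cytotoxic classes (purple) and Eomes+ Tr1-like cells (grey) than in the others.

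*BCL2*, the survival gene of resting T cells, was highest in Treg-like cells at 54.1 CPM (95% interval 44.7 to 65.0). Naive-like cells followed at 25.9 (23.5 to 28.6), Th2-like cells at 23.8 (15.3 to 35.4), Tfh-like cells at 23.4 (15.7 to 33.6) and Th17-like cells at 20.9 (14.7 to 28.9). CD8 CTL-like cells had 15.1 (10.3 to 21.2), Eomes+ Tr1-like cells 11.6 (6.004 to 20.3) and CD4 CTL-like cells 7.85 (5.08 to 11.6). In this order the step from Treg-like to naive-like cells was the one with an interval away from 0, a log2 ratio of 1.06 (0.75 to 1.36), and no other neighbours differed beyond counting error. Within the cytotoxic cells, *BCL2* was lower in CD4 CTL-like than in CD8 CTL-like cells by a log2 ratio of -0.94 (-1.75 to -0.14). The 53 innate-like cells held 4 *BCL2* UMIs, too few to place them.

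*BCL2L1*, whose product BCL-XL is the survival protein of many activated cells, ran the other way. It stood at 59.7 CPM (51.5 to 68.8) in CD4 CTL-like, 58.9 (33.0 to 97.2) in innate-like, 46.6 (37.9 to 56.7) in CD8 CTL-like and 46.5 (34.3 to 61.6) in Eomes+ Tr1-like cells. The next class, Th17-like, was at 27.7 (20.5 to 36.7), and the step down to it was the single one in this order with an interval away from 0. Naive-like cells had 21.6 (19.4 to 24.0) and Treg-like cells, the lowest, 18.0 (12.8 to 24.8). Over the 9 classes the Pearson correlation of log2(CPM + 5) between *BCL2* and *BCL2L1* was -0.86, given as a description of 9 sums from 1 library.

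*MCL1*, a survival gene that T cells of all stages need, was the member with the most UMIs and spanned a narrow range. Tfh-like cells had 219 CPM (193 to 246), Eomes+ Tr1-like cells 191 (165 to 219), Treg-like cells 164 (147 to 182) and naive-like cells 130.3 (124.7 to 136.0). No neighbouring classes in this order differed beyond counting error, although Tfh-like cells were above naive-like cells by a log2 ratio of 0.75 (0.56 to 0.93). The lowest value was that of the innate-like cells, 106.0 CPM (69.9 to 154) from 27 UMIs. Outside these classes, *MCL1* stood at 337 CPM (302 to 375) in B-like, 388 (287 to 513) in monocyte-like and 104.0 (74.3 to 142) in cycling cells.

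*BCL2L11*, which encodes the BH3-only protein BIM, was highest in Treg-like cells at 61.7 CPM (51.6 to 73.3, 130 UMIs). Tfh-like cells came next at 26.6 (18.3 to 37.4), and the log2 ratio between them was 1.21 (0.65 to 1.81). Tfh-like cells in turn were above Th17-like cells (14.1, interval 9.16 to 20.9) by 0.91 (0.12 to 1.72). The remaining classes lay between 8.93 and 15.7 CPM, with naive-like cells at 11.2 (9.61 to 12.95), and none of these neighbours differed. Gated on a *FOXP3* UMI instead of by cluster, 384 cells had 50.5 CPM (40.0 to 62.9).

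*BMF*, another BH3-only gene, whose product responds to loss of attachment and of growth factors, was low in every T cell class but the naive-like one. The 5237 naive-like cells held 310 of its 364 UMIs, or 19.4 CPM (17.3 to 21.7). By level CD8 CTL-like cells were next, with 12 UMIs and 5.64 CPM (2.92 to 9.86), a log2 ratio of -1.78 (-2.75 to -0.95) to naive-like cells. By tag gate, 8 of these UMIs lay in 204 CD4 high CD8 high cells and 3 in 30 CD4 high CD8 low cells. Those cells were deep, with medians of 6006 and 6040.5 UMIs. The 193 CD4 low CD8 high cells of the class, with a median of 3253, held 1 (1.43 CPM, 0.04 to 7.99). The reason for the difference in depth was not tested. In the other classes 0 to 6 UMIs were found, with at most 1.99 CPM. Treg-like cells held 3 UMIs, or 1.42 CPM (0.29 to 4.16), and the 789 helper-like cells held 7, or 1.74 CPM (0.70 to 3.59). B-like cells, with 10.97 CPM (5.48 to 19.6), and the unnamed cluster of 260 cells, with 6.25 (2.70 to 12.3), lay between these values and that of naive-like cells.

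*BID*, the BH3-only gene whose product is cut by caspase 8 below the death receptors, varied less. It was highest in Tfh-like cells at 60.5 CPM (47.6 to 75.9) and lowest in naive-like cells at 31.1 (28.4 to 33.9), and no neighbours in its order differed beyond counting error. Eomes+ Tr1-like cells had 53.3 (40.1 to 69.3), and Treg-like cells, second from the bottom, 35.1 (27.6 to 44.1).

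The effector genes *BAX* and *BAK1* were both high in CD4 CTL-like cells, the class of lowest *BCL2*. *BAX* stood at 129 CPM (117 to 142) in CD4 CTL-like cells, 109 (95.1 to 124) in CD8 CTL-like cells, 83.0 (78.6 to 87.5) in naive-like and 75.5 (64.2 to 88.2) in Treg-like cells. *BAK1* stood at 42.7 (35.9 to 50.5) in CD4 CTL-like, 35.8 (25.2 to 49.4) in Eomes+ Tr1-like, 25.4 (19.1 to 33.1) in CD8 CTL-like and 17.4 (15.4 to 19.6) in naive-like cells. Between CD4 CTL-like and CD8 CTL-like cells the log2 ratio was 0.75 (0.29 to 1.23) for *BAK1* and 0.25 (0.01 to 0.48) for *BAX*. Within CD8 CTL-like cells, *BAK1* was 31.6 CPM (19.8 to 47.8) in the 193 CD4 low CD8 high cells. It was 23.0 (15.4 to 33.0) in the 204 CD4 high CD8 high and 18.3 (3.78 to 53.5) in the 30 CD4 high CD8 low cells. These intervals overlap, and the CD4 high cells are the deeper ones, so the class value depends on this mixture. The 46 cycling cells had the highest *BAX* of all groups, 296 CPM (244.5 to 356), a log2 ratio of 1.84 (1.55 to 2.11) to naive-like cells and 1.30 to cytotoxic-like cells. They also had 52.0 CPM (31.8 to 80.3) of *BAK1* and 78.0 (52.6 to 111) of *BID*, while *BCL2* had 3 UMIs there.

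Set against naive-like cells, a member was counted as different where its CPM was at least 1.5 times higher or lower and both groups together held at least 50 UMIs, and the share of all genes that met the same rule is given beside each count. In Treg-like cells 4 of the 8 members met it, against 19.3% of 8964 genes. *BCL2L11* was 5.52-fold higher (log2 ratio 2.46, interval 2.13 to 2.80), *BCL2* 2.09-fold higher (1.06, 0.75 to 1.36) and *BAK1* 1.503-fold higher (0.59, 0.14 to 1.01), while *BMF* was 13.6-fold lower (-3.77, -6.05 to -2.21). *BAK1* lay at the limit and stayed past it under 4 of 13 other ways of processing. *MCL1* (0.33, 0.16 to 0.50) was higher by less than 1.5-fold, and *BID*, *BCL2L1* and *BAX* had intervals that hold 0. The median gene of this comparison had a log2 ratio of -0.06, and the median of the 8 members was 0.25.

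In helper-like cells 2 of the 8 members differed, against 29.5% of 9224 genes. *BMF* was 11.1-fold lower (log2 ratio -3.47, -4.80 to -2.41) and *BID* 1.65-fold higher (0.72, 0.48 to 0.96). *BCL2L11* at 0.58 (0.15 to 0.99) and *BAK1* at 0.56 (0.22 to 0.89) were just inside the limit of 1.5-fold. *BCL2* was at -0.21 (-0.56 to 0.12), so no difference was detectable. The *BID* count rests on the cells chosen: its log2 ratio was 0.44 without the cells of highest doublet score, under the limit.

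In cytotoxic-like cells 4 of the 8 members differed, against 40.8% of 9374 genes, so a count of this size is near the background. *BCL2L1* was 2.53-fold higher (log2 ratio 1.34, 1.11 to 1.57) and *BAK1* 2.08-fold higher (1.06, 0.79 to 1.32), while *BCL2* was 2.37-fold lower (-1.24, -1.65 to -0.85) and *BMF* 5.99-fold lower (-2.58, -3.36 to -1.90). *BAX* was 0.54 higher (0.41 to 0.68) on the log2 scale, under the limit. Eomes+ Tr1-like cells had 5 of 8 past the limit, against 37.8% of 8880 genes. These were *BCL2L1* (1.11, 0.64 to 1.55), *BAK1* (1.04, 0.51 to 1.54) and *BID* (0.78, 0.35 to 1.18), which were higher, and *BCL2* (-1.16, -2.12 to -0.34) and *BMF* (-3.32, -6.38 to -1.46), which were lower. Between Eomes+ Tr1-like and CD4 CTL-like cells, no member had an interval away from 0. All 4 comparisons share the naive-like cells. Counted as UMIs per cell in place of CPM, the median gene moved up by 0.27 to 0.74 in these comparisons with the depth of the cells, and *BCL2* and *BMF* were still lower in cytotoxic-like cells, with *BCL2* at -0.79.

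**Figure D2:**
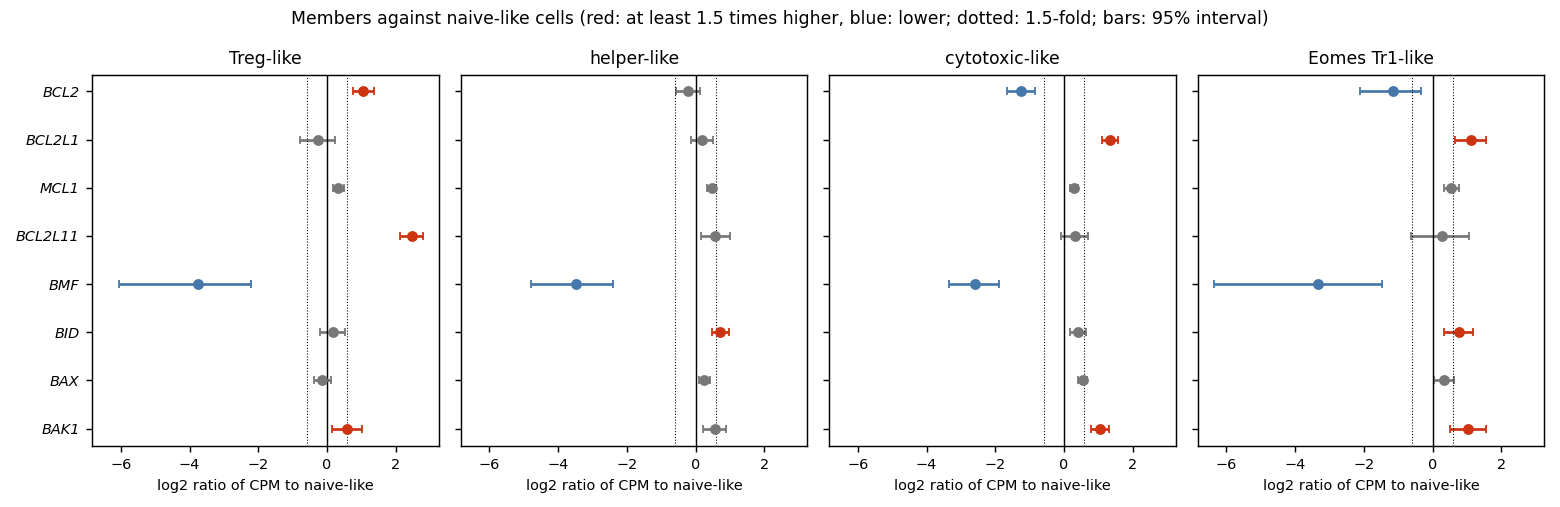
log2 ratio of CPM to naive-like cells (horizontal axis) for the 8 members in 4 classes, with 95% intervals from the exact binomial split of the UMIs. Red points are at least 1.5 times higher, blue points at least 1.5 times lower and grey points neither; *BMF* is blue in all 4 panels, from -2.58 to -3.77, and *BCL2* is red in Treg-like cells at 1.06 and blue in cytotoxic-like cells at -1.24.

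Treg-like cells came from 3 clusters, and these differed in the family genes. Cluster 6.1, with 161 cells, had 119 CPM of *BCL2L11* (93.4 to 150.3, 72 UMIs), cluster 6.0, with 250 cells, 47.3 (34.0 to 64.2), and cluster 4.2, with 162 cells, 26.7 (15.6 to 42.8). The log2 ratio of cluster 6.1 was 1.33 (0.76 to 1.92) to cluster 6.0 and 2.16 (1.38 to 3.01) to cluster 4.2. *BCL2* followed the same order, with 72.9 CPM (53.0 to 97.9) in 6.1, 56.6 (41.8 to 74.8) in 6.0 and 33.0 (20.4 to 50.5) in 4.2, and 6.1 and 6.0 did not differ beyond counting error. *BCL2L11* was among the 10 leading genes of cluster 6.1, beside *FOXP3*, *IL2RA* and *CTLA4*, although it had been left out of the genes clustered.

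The clusters also differed in the opposite direction for other members. *BAK1* stood at 50.3 CPM (34.4 to 71.0) in cluster 4.2, against 17.3 (9.69 to 28.6) in 6.0 and 13.3 (5.72 to 26.1) in 6.1. *BCL2L1* was lowest in 6.0, at 8.08 (3.25 to 16.6), against 31.5 (19.2 to 48.6) in 4.2. The clusters had similar depth, with medians of 3378 (4.2), 3319.5 (6.0) and 3428 (6.1) UMIs. *FOXP3* was high in each, from 219 CPM in 6.0 to 357 in 4.2, so the *BCL2L11* order was not the *FOXP3* order. Cluster 4.2 had 472 CPM of *TIGIT* and 123 of *TNFRSF18*, genes of activated regulatory cells, against at most 3.31 of each in the others.

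**Figure D3:**
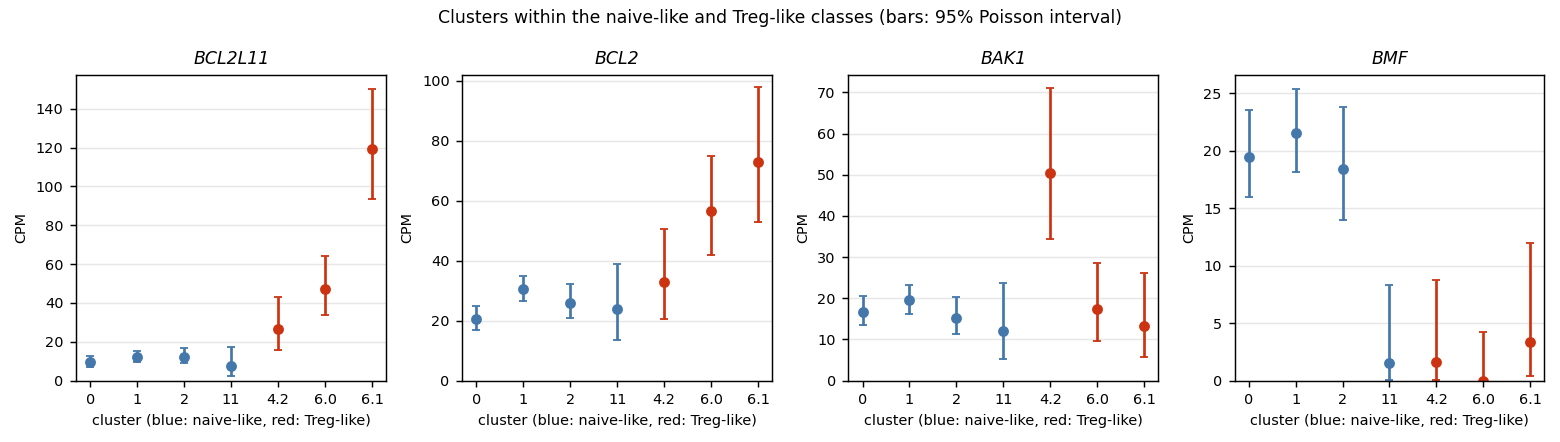
CPM of *BCL2L11*, *BCL2*, *BAK1* and *BMF* (vertical axes from 0) in the 4 naive-like clusters (blue) and the 3 Treg-like clusters (red), with exact Poisson 95% intervals. *BCL2L11* reaches 119 CPM in cluster 6.1, *BAK1* stands out in cluster 4.2, and *BMF* is near 0 in naive-like cluster 11 as in the Treg-like clusters.

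The naive-like class was made of 4 clusters. *BMF* was alike in clusters 0, 1 and 2, from 18.4 to 21.5 CPM with overlapping intervals, and cluster 2, whose leading genes include the erythroid genes *HBB* and *ALAS2*, was no exception. *BCL2* was less even, with 20.6 CPM (16.9 to 24.7) in cluster 0, 30.5 (26.5 to 35.0) in cluster 1 and 26.0 (20.7 to 32.3) in cluster 2. Cluster 11, 158 cells with a median of 106.5 CD4 tag and 1412.5 CD8 tag UMIs, held 1 *BMF* UMI, or 1.496 CPM (0.04 to 8.33). Its log2 ratio to the other 3 clusters was -3.75 (-9.06 to -1.26) for *BMF* and -1.89 (-3.78 to -0.53) for *BCL2L1*, which had 5.98 CPM. *BID* was higher by 1.04 (0.55 to 1.51), at 61.3 CPM. *BCL2* at 23.9 CPM (13.7 to 38.9) and *BAX* at 88.2 (67.2 to 114) were within counting error of the others. Against CD8 CTL-like cells, which share its high CD8 tag, cluster 11 was far lower in *BCL2L1*, the ratio of CD8 CTL-like cells to it being 2.96 (1.56 to 4.86) on the log2 scale.

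Depth was also related to 2 members within naive-like cells. In 3 equal groups by depth, with medians of 2361, 2858 and 3595 UMIs per cell, *BCL2* stood at 17.4 (13.5 to 21.96), 24.98 (20.8 to 29.8) and 31.5 CPM (27.5 to 35.9), and *BMF* at 26.4 (21.6 to 32.0), 18.4 (14.8 to 22.5) and 16.1 (13.3 to 19.4). In Treg-like cells the 3 *BCL2* values were 67.8 (46.9 to 94.7), 52.8 (36.6 to 73.8) and 47.9 (35.1 to 63.9). Their order was the opposite one, but the intervals overlap, so no relation to depth was detectable there. *BMF* was at most 2.08 in Treg-like cells. Cells were also thinned to 2200 UMIs each, which left out the 754 cells with fewer and kept 4724 of the 5237 naive-like cells. Thinning evens the UMIs per cell but keeps the composition of each cell. It therefore cannot remove the relation of *BCL2* and *BMF* to depth among naive-like cells. In the thinned cells the log2 ratio to naive-like cells was 2.49 for *BCL2L11* and 1.17 for *BCL2* in Treg-like cells. It was -1.20 for *BCL2* and -2.12 for *BMF* in cytotoxic-like cells, and -4.07 for *BMF* in helper-like cells. The thinned Treg-like cells held 0 *BMF* UMIs.

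For the tag gates, each cell was called high or low for each tag by 1 threshold of tag UMIs. This gave 5758 CD4 high CD8 low, 2543 CD4 high CD8 high and 418 CD4 low CD8 high cells, and 111 cells low in both. The median CD4 tag was 415, 477 and 101 UMIs in the first 3 gates and the median CD8 tag 226, 641 and 1640. The cells low in both tags, 68 of which were B-like, were not compared. Naive-like cells were 4250, 839 and 130 of the first 3 gates, and cytotoxic-like cells were 358, 728 and 237, so a gate holds a different mixture of classes.

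Between CD4 low CD8 high and CD4 high CD8 low cells 2 of the 8 members differed, against 27.0% of 9416 genes. *BMF* was 0.61 CPM against 13.8, with 1 UMI in 418 cells (log2 ratio -4.49, -9.80 to -2.00). *BCL2L1* was 41.1 CPM against 25.3 (0.70, 0.31 to 1.07), and with both tag thresholds multiplied by 1.5 it was under the limit, at 0.55. *BCL2* was 23.3 against 26.5 (-0.19, -0.70 to 0.29) and *MCL1* 134 against 151 (-0.17, -0.38 to 0.03). Between CD4 high CD8 high and CD4 high CD8 low cells 0 of 8 differed by 1.5-fold, against 14.6% of 10028 genes. The largest ratios there were those of *BMF*, at 9.32 against 13.8 CPM (-0.57, -0.91 to -0.23), and *BCL2*, at 19.97 against 26.5 (-0.41, -0.64 to -0.18). *BCL2L1*, *BID*, *BAX* and *BAK1* were higher by 0.20 to 0.29, with intervals away from 0.

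Within 1 class the gates gave another picture. Among naive-like cells, CD4 low CD8 high cells differed from CD4 high CD8 low cells in 4 of 8 members, against 34.7% of 8424 genes, and 116 of these 130 cells were of cluster 11. *BMF* had 0 UMIs, against 18.8 CPM in the CD4 high CD8 low cells. The limit of 3 UMIs over the group is 5.74 CPM, which would be 3.28-fold lower. The exact interval of the log2 ratio reaches up to -1.40, a weaker limit. *BCL2L1* (4 UMIs, log2 ratio -1.55, -3.43 to -0.18) was also lower. *BAK1*, with 4 UMIs, had an interval that holds 0 (-1.18, -3.07 to 0.20), and *BID* was higher (1.03, 0.46 to 1.55). The *BCL2L1* ratio between these gates thus had opposite signs over all cells and among naive-like cells.

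CD4 high CD8 high naive-like cells differed from CD4 high CD8 low ones in 0 of 8 members, against 4.72% of 8695 genes. Their *BMF* was 25.3 CPM (19.8 to 31.9) against 18.8 (16.5 to 21.4), a log2 ratio of 0.43 (0.02 to 0.81), opposite in sign to that over all cells. It was the higher in each of the 3 large clusters, with 23.4 against 18.7 CPM in cluster 0, 26.6 against 20.2 in cluster 1 and 34.2 against 16.4 in cluster 2. The intervals of each pair overlap. Naive-like cells were 33.0% of the CD4 high CD8 high gate and 73.8% of the CD4 high CD8 low gate.

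In cytotoxic-like cells, 0 of the 5 members with enough UMIs differed between CD4 low CD8 high and CD4 high CD8 low cells, against 9.59% of 4620 genes. *BCL2L1* stood at 61.3 and 68.1 CPM, *BAX* at 123 in both and *BAK1* at 37.0 and 38.1. *BCL2*, with 27 UMIs in all, stood at 19.7 and 7.48 CPM (log2 ratio 1.39, 0.19 to 2.68). CD8 CTL-like cells were 193 of these 237 CD4 low CD8 high cells and CD4 CTL-like cells 327 of the 358 CD4 high CD8 low cells, so gate and class cannot be told apart there. In Treg-like cells, CD4 high CD8 high cells differed from CD4 high CD8 low cells in 0 of 6 members, against 10.4% of 3887 genes, with *BCL2L11* at 73.5 and 58.2 CPM (0.34, -0.24 to 0.89).

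**Figure D4:**
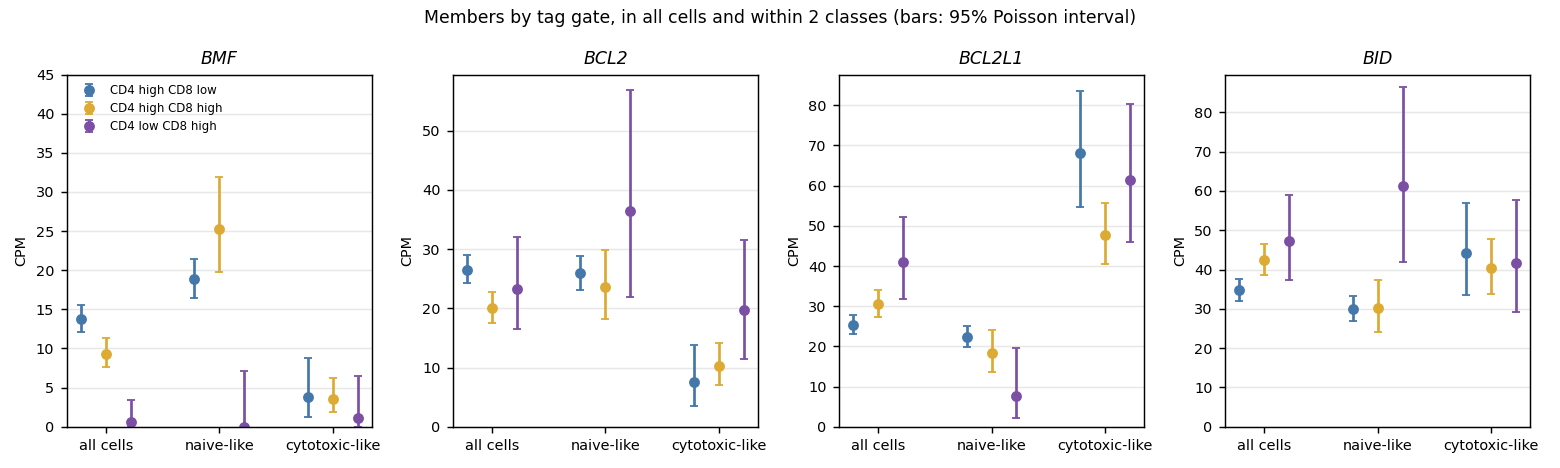
CPM of *BMF*, *BCL2*, *BCL2L1* and *BID* (vertical axes from 0) in 3 tag gates, for all cells and within naive-like and cytotoxic-like cells, with exact Poisson 95% intervals. In all cells *BCL2L1* is highest in the CD4 low CD8 high gate (41.1 CPM), while among naive-like cells it is lowest there and *BMF* has 0 UMIs.

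The balance between members was read as UMIs of 1 gene per 100 UMIs of *BCL2* in the same cells, and compared between classes only, since the capture of different genes may differ. *BCL2L11* stood at 43.1 per 100 *BCL2* UMIs (95% binomial interval 36.0 to 51.5) in naive-like cells and at 114 (88.0 to 148) in Treg-like cells, where both genes were high. Tfh-like cells had 114 (67.0 to 194), Eomes+ Tr1-like cells 117 (50.1 to 276) and CD8 CTL-like cells 93.8 (55.03 to 159), so the ratio did not set Treg-like cells apart. CD4 CTL-like cells, in which both were low, had 172 (103 to 294). Within the Treg-like class the ratio was 164 (111 to 244) in cluster 6.1, 83.7 (53.9 to 129) in 6.0 and 81.0 (40.1 to 161) in 4.2. *MCL1* per 100 *BCL2* UMIs was lowest in Treg-like cells at 303 (244 to 377), 502 (452 to 559) in naive-like cells and 2128 (1426 to 3318) in CD4 CTL-like cells.

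**Figure D5:**
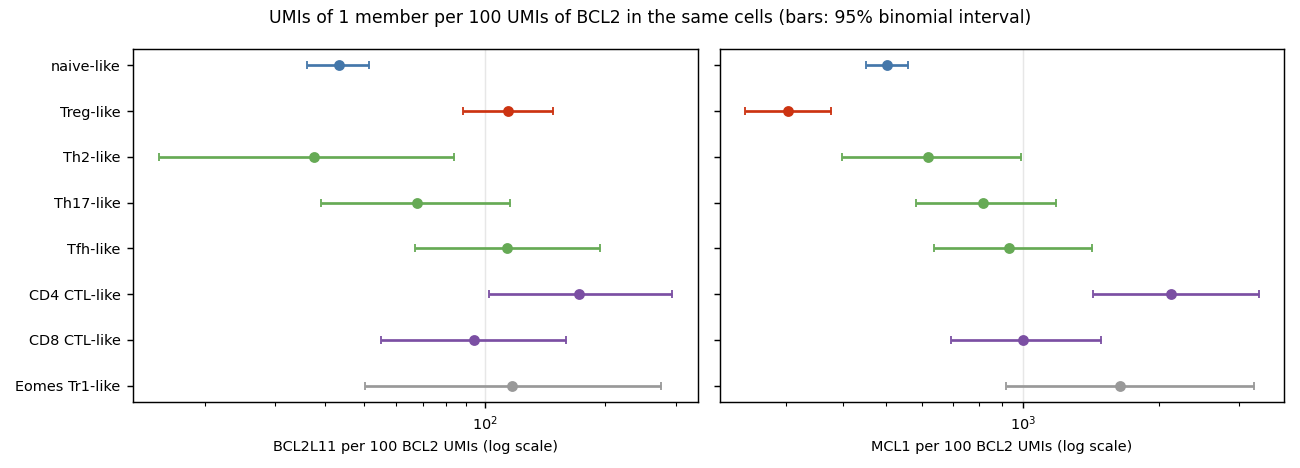
UMIs of *BCL2L11* (left) and *MCL1* (right) per 100 UMIs of *BCL2* in 8 classes, on log axes, with exact binomial 95% intervals; innate-like cells, with 4 *BCL2* UMIs, are not drawn. *BCL2L11* is at 43.1 in naive-like and 114 in Treg-like cells, while *MCL1* is lowest in Treg-like cells at 303 and highest in CD4 CTL-like cells at 2128.

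Single cells carried few UMIs of these genes. After thinning to 2200 UMIs per cell, the ratio of variance to mean over cells was 1.05 for *BCL2L11* in naive-like cells and 1.18 in Treg-like cells, where counting alone gives 1, and 9.49% of thinned Treg-like cells had 1 UMI of it. In Treg-like cells 93 held a *BCL2* UMI, 103 a *BCL2L11* UMI and 17 both, against 16.7 from the product of the shares. In naive-like cells 369 held a *BCL2* UMI, 170 a *BCL2L11* UMI and 21 both, against 11.98 from the product of the shares. These counts were not adjusted for the depth of each cell.

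By pattern over the 9 classes, the genes most like each member by Pearson correlation of log2(CPM + 5), among 7924 genes with at least 200 UMIs, are given as a description. For *BCL2L11* these were *HLA-DOB* (0.97), *FOXP3* (0.94) and *OTUD5* (0.92). *HLA-DOB* reached no more than 2.38 CPM, and *FOXP3* 292. For *BMF* they were *KIAA1549* (0.96), *ABCA13* (0.93) and *ARHGEF7* (0.93), for *BCL2* *PCMTD2* (0.94) and *KLHL6* (0.93), for *BCL2L1* *FUNDC2* (0.99) and *ATG4D* (0.98), and for *MCL1* *NBN* (0.96) and *NUDT21* (0.96). *BAX* was most like *AP3M1* (0.98) and *NCOA2* (0.97), *BAK1* like *RAB8B* (0.97), *MCM5* and *ASL* (both 0.94), and *BID* like *HINT2* (0.96), *SH3GLB2* and *SOD2* (both 0.94). Genes with identifiers only are among those left out here. All points share 1 library, and with 9 points many genes reach such values.

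Of the other BCL2 family, 11 of 15 listed genes were among the symbols. In Treg-like cells 1 of the 6 with enough UMIs was higher and 2 lower (median log2 ratio -0.06), in helper-like cells 3 of 8 higher and 1 lower (0.37), in cytotoxic-like cells 3 of 7 higher and 1 lower (0.32), and in Eomes+ Tr1-like cells 1 of 6 higher and 1 lower (0.14). In the same order, 19.3%, 29.5%, 40.8% and 37.8% of all genes were past the limit, and their median was -0.06, 0.07, 0.15 and 0.11. *BCL2A1*, a survival gene induced by activation, was higher in all 4. It stood at 5.69 CPM in naive-like cells, 77.4 in Treg-like (log2 ratio 3.77, 3.39 to 4.15), 82.2 in helper-like (3.85), 142 in cytotoxic-like (4.64, 4.33 to 4.97) and 91.0 in Eomes+ Tr1-like cells. These ratios were larger than those of any survival gene among the 8 members. *BIK*, a BH3-only gene, stood at 18.7 in helper-like and 0.63 in naive-like cells (4.90, 3.94 to 6.02), and *BNIP3* was lower in all 4 classes, at 6.17 (Treg-like), 4.24 (helper-like), 3.59 (cytotoxic-like) and 0.97 CPM (Eomes+ Tr1-like) against 9.31 in naive-like cells, with an interval that holds 0 in Treg-like cells (-0.59, -1.54 to 0.22). *BCL2L13* was lower in Treg-like cells (-0.77, -1.33 to -0.26).

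Of 15 listed genes of caspases and the apoptosome, a list that also holds inhibitors of apoptosis, 13 were among the symbols and were tested. In Treg-like cells 3 were higher and 2 lower, and in helper-like cells 4 and 2. The counts were 6 and 2 in cytotoxic-like and 5 and 1 in Eomes+ Tr1-like cells. Beside these, 19.3%, 29.5%, 40.8% and 37.8% of all genes were past the limit. The medians were -0.16, 0.36, 0.35 and 0.44. *BIRC3*, an inhibitor of apoptosis, was higher in Treg-like cells (0.65, 0.44 to 0.86) and lower in cytotoxic-like cells (-1.96, -2.27 to -1.66), and its relative *BIRC2* was lower in helper-like (-1.13, -1.38 to -0.89) and cytotoxic-like cells (-1.09, -1.30 to -0.88).

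Death receptors belong to the outer route to death, which meets this family through BID. The list made for them also holds other genes, among them the ligand genes *FASLG* and *TNFSF10*, *TRADD* and *TNFRSF1B*. Its counts and medians are thus not those of death receptors alone. Of 9 listed genes, 3 of the 7 with enough UMIs were higher in Treg-like, 4 of 7 in helper-like, 6 of 8 in cytotoxic-like and 4 of 7 in Eomes+ Tr1-like cells, and 0 were lower in any, against 19.3%, 29.5%, 40.8% and 37.8% of all genes past the limit in either direction. The medians were 0.57, 1.26, 1.72 and 0.70. *FAS*, the gene of the receptor itself, stood at 3.69 CPM in naive-like cells, 20.4 in Treg-like, 62.8 in helper-like, 72.1 in cytotoxic-like and 76.5 in Eomes+ Tr1-like cells. In Treg-like cells the *FAS* level was 53.5 in cluster 4.2 and 5.77 and 6.63 in 6.0 and 6.1, the clusters of higher *BCL2* and *BCL2L11*. *TNFRSF1B*, the gene of a tumour necrosis factor receptor, stood at 184 CPM in Treg-like (log2 ratio 4.11, 3.85 to 4.38), 127 in helper-like (3.58, 3.32 to 3.84), 618 in cytotoxic-like (5.86, 5.64 to 6.09) and 336 in Eomes+ Tr1-like cells (4.98, 4.71 to 5.26), against 10.6 in naive-like cells. *TNFSF10*, the gene of the ligand TRAIL, was higher in helper-like cells (3.04, 2.74 to 3.34). *FASLG*, the gene of the Fas ligand, had 117 UMIs in cytotoxic-like cells, or 21.0 CPM, and 0 in naive-like cells. By the limit of 3 UMIs over the naive-like cells it was 112-fold higher. The exact interval of the log2 ratio starts lower, at 6.49.

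Among the genes of cytokine survival signals, 15 of 16 listed were among the symbols, and 5 of 13 tested were higher and 1 lower in Treg-like, 5 of 13 and 1 in helper-like, 1 of 12 and 3 in cytotoxic-like and 2 of 12 and 2 in Eomes+ Tr1-like cells. The share of all genes past the limit was 19.3%, 29.5%, 40.8% and 37.8%, and the counts in cytotoxic-like and in Eomes+ Tr1-like cells lie below it. The medians were 0.53, 0.44, 0.10 and 0.18. *IL7R*, the interleukin 7 receptor gene, stood at 829 CPM in naive-like cells, 307 in Treg-like (log2 ratio -1.43, -1.55 to -1.32), 322 in cytotoxic-like (-1.36, -1.44 to -1.29) and 538 in Eomes+ Tr1-like cells (-0.62, -0.75 to -0.50). Between Treg-like and cytotoxic-like cells *BCL2* had a log2 ratio of 2.30 (1.84 to 2.78). Whether *BCL2* levels are related to *IL7R* was not tested. *IL2RB*, the interleukin 2 receptor chain, was higher in all 4 classes, at 159, 66.3, 132 and 194 CPM against 10.3. *FOXO1*, a transcription factor of resting T cells, was higher in Treg-like cells (26.1 against 14.6, log2 ratio 0.84, 0.39 to 1.27).

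Markers of other cell types were checked in the classes. The summed level of 6 B cell genes was 62.6 CPM in naive-like, 54.6 in Treg-like, 24.4 in helper-like and 20.3 in cytotoxic-like cells, against 4580 in B-like cells, and 3 of the 6, *MS4A1*, *PAX5* and *BANK1*, were at 0 in naive-like cells. The 4 erythroid genes found summed to 282 CPM in naive-like cells, nearly all in cluster 2, and to 0 in Treg-like cells. By tag gate they summed to 9978 CPM in cells low in both tags and to at most 0.53 in the other gates. Nearly all of this signal thus lay among the 18 naive-like cells low in both tags, not across the 1069 cells of cluster 2. The sum of 5 natural killer cell genes, of which *TYROBP* and *FCER1G* also served to name the innate-like cluster, was 267 CPM in cytotoxic-like cells (*NCAM1* at 0), against 20.9 in naive-like, 17.9 in helper-like and 4.75 in Treg-like cells. It was 3979 in the 53 innate-like cells, 86.1 in CD4 CTL-like and 92.2 in CD8 CTL-like cells. Taken without the innate-like cells, *BCL2L1* had a log2 ratio to naive-like cells of 1.47 (1.21 to 1.73) in CD4 CTL-like and 1.11 (0.77 to 1.44) in CD8 CTL-like cells, and *BCL2* one of -1.72 (-2.37 to -1.14) and -0.79 (-1.35 to -0.27). *BAK1* had 1.30 (0.99 to 1.60) and 0.55 (0.10 to 0.97), the latter under the limit of 1.5-fold. Without clusters 2 and 11, a setting chosen after the data were seen, the naive-like class gave log2 ratios of 2.48 for *BCL2L11* and 1.06 for *BCL2* in Treg-like cells, and -3.85 for *BMF*.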

How the data were processed

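One gene expression library and one antibody tag library of the same cells were used, both of 5′ single-cell chemistry. Reads were processed by the authors in Cell Ranger 3.1.0 (STAR 2.5.1b, cynomolgus genome build Macaca_fascicularis_5.0), and what they deposited are raw UMI counts, taken before their filter in Seurat 3.1.3. That filter (200 to 4000 genes, at most 20% mitochondrial UMIs) left 8830 of 8953 barcodes here, more cells than the study states after filtering, and the reason for the difference is not known. No doublets were removed, since Scrublet (scanpy 1.11.5) called 0 cells.

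Clustering used Seurat 5.3.0 in R 4.3.3, without the tags and without the listed BCL2 family genes found by symbol. Clusters were named from marker lists by rules set in an earlier look at these cells. The members, gene lists and tag thresholds were also chosen with earlier results of these data known, so no list is independent evidence. In naive-like clusters 1 and 2, the 10 leading genes hold 1 and 2 markers listed for other cells and 0 naive markers, so values are also given by cluster.

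Summed counts were compared in Python 3.11.15 with scipy 1.17.1. No test was made, because there is 1 animal. Levels have exact Poisson and ratios exact binomial 95% intervals, and a count of 0 was given the limit of 3 UMIs over the group. The named genes were the 8 members in every comparison, up to 3 genes of each further list with the largest ratios in each direction past 1.5-fold, and the 3 genes most like each member. Other genes, clusters and pairs of classes were chosen after their values were seen. The alternatives were other numbers of components, resolutions, filters, scalings, folds, tag thresholds and depths. The steps were tested on simulated data. No coordinates or sequences are given, since no genome was used here. A few genes that these rules would name are not reported here.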

Additional observations from a re-analysis of the deposited data

How the results depend on the processing

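Of 863 member ratios recomputed under the alternatives, 810 stayed within the interval of the reported ratio, 31 of the 53 outside it came from counting UMIs per cell, and 0 of the called ratios changed sign. Against naive-like cells, 12 of 15 calls were past 1.5-fold in every alternative. The others were *BAK1* in Treg-like cells (4 of 13, log2 ratio 0.43 to 0.85), *BID* in helper-like cells (8 of 12, 0.44 to 1.46) and *BID* in Eomes+ Tr1-like cells (11 of 12, 0.56 to 1.13). Of 138 counts of members past the limit, 18 moved by over 1.5 times.

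With UMIs per cell, which carries the depth of the cells, the count went from 2 to 7 in helper-like, 4 to 8 in cytotoxic-like and 5 to 8 in Eomes+ Tr1-like cells, from 2 to 4 between CD4 low CD8 high and CD4 high CD8 low cells, from 0 to 4 between CD4 high CD8 high and CD4 high CD8 low cells, and from 0 to 1 for the latter pair in naive-like and in Treg-like cells. *BCL2* in helper-like cells, not called, went from -0.21 to 0.53. A limit of 2-fold took the count from 2 to 1 in helper-like cells and between CD4 low CD8 high and CD4 high CD8 low cells. At most 10% mitochondrial UMIs, or leaving out the 631 cells of highest doublet score, took helper-like cells from 2 to 1. Tag thresholds multiplied by 1.5 took CD4 low CD8 high against CD4 high CD8 low cells from 2 to 1 (*BCL2L1*, at 0.55), and thinning took it from 2 to 4. CD4 high CD8 high against CD4 high CD8 low cells went from 0 to 1 without ribosomal protein and mitochondrial genes, with thresholds multiplied by 1.5 and without the highest doublet scores. With no filter on low UMI sums, the counts within Treg-like and cytotoxic-like gates went from 0 to 2. The causes were not tested. All rests on 1 animal, and members with under 50 UMIs in a comparison could not be placed.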
